A study of Mus musculus with 15 samples.

Results

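Interferon-stimulated genes are genes whose transcription rises when a cell senses an interferon. Here 47 of them were followed, of 55536 annotated genes in the count table, in CD8+ T cells that were resting, had met antigen, or had met antigen together with costimulation. They were chosen by name, not by a threshold on any value, but with earlier results of these data known. The 3 classes are 34 genes typical of type I interferon, 4 transcription factors of the response, and 9 GTPases best known for induction by interferon gamma. All 47 passed the filter on low counts and were among the 17366 genes tested.

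CD8+ T cells of the OT-I line, transgenic for 1 T cell receptor that recognises an ovalbumin peptide presented by H-2Kb, were sequenced as 15 libraries of polyadenylated RNA. Per the study's methods these mice are on a Rag1-/- or Rag2-/- C57BL/6J background, a deficiency that all 3 groups share. The 5 Naive libraries came from OT-I mice whose cells were not transferred. For the other 2 groups, OT-I cells were put into wild-type C57BL/6J recipients. Recipients of the 5 Ag libraries then received the peptide and control rat IgG, and those of the 5 Ag+Costim libraries the peptide and agonist antibodies to CD134 (OX40) and CD137 (4-1BB). For the transferred cells the labels give day 4, and for no group do they give an age. Transferred cells were sorted as CD8+ CD45.1+ cells bearing the receptor chains Va2 and Vb5, so Ag and Ag+Costim libraries differ from Naive libraries in transfer, host and sort as well as in antigen. The labels do not say whether a library came from 1 mouse, so p-values measure the spread between these libraries only.

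Type I interferons bind the receptor Ifnar1 and Ifnar2, whose kinases Jak1 and Tyk2 phosphorylate Stat2 among others. Stat2 joins Irf9 in the complex ISGF3, which binds the interferon-stimulated response element (ISRE) in promoters of antiviral genes. Interferon gamma, which activated CD8+ T cells secrete themselves, uses Ifngr1 and Ifngr2 and acts mainly through the gamma-activated site (GAS). The proteins made in response degrade or sequester viral RNA, deplete nucleotides, tether virions or disrupt the vacuoles of intracellular pathogens, and Socs1 and Usp18 shut the signal off again.

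Total estimated counts ranged from 4865952 to 25280667 per library. CPM below is the count scaled by TMM to a common library total, and FDR is the p-value of edgeR's quasi-likelihood test after Benjamini-Hochberg adjustment over all 17366 genes, called under 0.05. Some libraries stood apart. Ag 2 and Ag 5 were made from an input amount of 1.4 and 1.8 in the core's table, which gives no unit, against 7 to 10 in the others, and held 21705 and 20949 genes with a count against 23891 to 44408. Ag 3 had the lowest total and 16.9% of its reads counted, against 37.4% to 53.6%. Naive and Ag+Costim libraries also differed as groups, with 30152 to 33853 against 23891 to 25410 genes with a count. The percent in the core's RiP column, not spelled out there, was 44.4 to 62.7 in Naive and 69.3 to 74.3 in Ag+Costim. It was 43.8 and 55.0 in Ag 1 and Ag 4, 72.3 and 78.3 in Ag 2 and Ag 5, and 15.4 in Ag 3. The part of these differences in the calls below was not tested. Of the 9 CD8+ T cell markers none was at 0 in any library, and they summed to 6642 to 10062 CPM in Naive, 5660 to 9297 in Ag and 6123 to 7253 in Ag+Costim. In Ag+Costim against Naive, 4 of these 9 markers were called lower, where 23.6% of all genes were, and 0 higher, where 21% were. The 8 B cell markers summed to 157, 420 and 196 CPM in Ag 1, Ag 3 and Ag 4, to 17.4 and 21.3 in Ag 2 and Ag 5, to 22.5 to 32.9 in Naive and to 14.8 to 36.5 in Ag+Costim, with at most 3 markers at 0 in a library. The 11 myeloid markers summed to 1044 CPM in Naive 5 and to 15.2 to 217 elsewhere, with at most 2 at 0. The 8 dendritic cell markers summed to 1492 CPM in Ag 3, 405 in Ag 1 and 493 in Ag 4, and to 32.9 to 298 elsewhere. Erythroid markers reached 1311 CPM in Ag 3, against 4.39 to 152 elsewhere, and the 4 CD4+ T cell markers 3.93 to 34.4. In bulk RNA, fewer cells of a kind and less RNA per cell cannot be told apart.

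The letters that interferon signalling reads were looked for in the RefSeq promoters of the members (GRCm38.p6, 250 bases before to 50 after each start). The ISRE core was searched as GAAANNGAAA and the GAS as TTCNNNGAA, where N is any base, on both strands and with overlaps allowed. Of the 37 members that matched a promoter, 20 held the ISRE core, 54.1%, against 3.99% of the 27025 genes with a promoter in the table, and 11 held the GAS letters, 29.7%, against 9.55% of these genes. Of all 32851 promoters of this length 3.44% held the ISRE core and 8.30% the GAS letters. Among the members that were lower in Ag+Costim than in Naive libraries, 5 of 12 held the ISRE core. Of those that were higher, 2 of 3 did, and of those that were not called, 13 of 22. Below are 200 bases that end before the most upstream annotated start inside the promoter window, 5′ to 3′ on the gene's strand. The stretches are in lower case with the ISRE core in capitals. For Slfn5 and Irgm1 the annotated gene begins further upstream, outside the window (at 82951349 and 48871683), so their stretches lie inside the gene. All stretches are shown so that genes that moved in opposite directions, or not at all, can be read side by side. The first 5 fell in Ag+Costim relative to Naive libraries.
Ifit1, chr19:34640671-34640870, plus strand: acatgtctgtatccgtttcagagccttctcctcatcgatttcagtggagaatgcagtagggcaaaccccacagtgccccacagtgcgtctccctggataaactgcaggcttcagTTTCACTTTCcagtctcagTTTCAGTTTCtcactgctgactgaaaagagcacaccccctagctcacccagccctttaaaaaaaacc
Ifit3, chr19:34583329-34583528, plus strand: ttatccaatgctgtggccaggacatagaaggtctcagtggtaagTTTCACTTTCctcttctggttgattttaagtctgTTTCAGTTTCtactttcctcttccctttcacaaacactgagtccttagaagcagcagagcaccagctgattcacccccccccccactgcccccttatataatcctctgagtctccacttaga
Rsad2, chr12:26456453-26456652, minus strand: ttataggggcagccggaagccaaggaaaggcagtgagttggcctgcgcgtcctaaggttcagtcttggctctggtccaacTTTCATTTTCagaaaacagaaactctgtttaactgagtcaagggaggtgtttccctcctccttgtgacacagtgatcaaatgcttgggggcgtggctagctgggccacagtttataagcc
Slfn5, chr11:82951895-82952094, plus strand: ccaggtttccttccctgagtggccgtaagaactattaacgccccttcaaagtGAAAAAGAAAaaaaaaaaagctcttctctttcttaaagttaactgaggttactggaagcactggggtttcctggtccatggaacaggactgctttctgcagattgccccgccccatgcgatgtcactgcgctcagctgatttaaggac
Slfn8, chr11:83020811-83021010, minus strand: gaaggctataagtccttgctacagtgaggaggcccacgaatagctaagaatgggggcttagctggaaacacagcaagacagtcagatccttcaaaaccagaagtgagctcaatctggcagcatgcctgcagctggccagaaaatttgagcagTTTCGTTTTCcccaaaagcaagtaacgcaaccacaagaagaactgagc

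The next 2, from Oas1a and Gbp3, rose in the same comparison. In each promoter 2 ISRE cores overlap, and the first begins 20 and 27 bases from the end of the stretch. In the 5 promoters above, cores begin 48 bases (Slfn8) to 156 bases (Ifit3) from it. In the uncalled Igtp, Irgm1 and Isg15 the first core begins 34, 30 and 78 bases from the end of the stretch.
Oas1a, chr5:120907526-120907725, minus strand: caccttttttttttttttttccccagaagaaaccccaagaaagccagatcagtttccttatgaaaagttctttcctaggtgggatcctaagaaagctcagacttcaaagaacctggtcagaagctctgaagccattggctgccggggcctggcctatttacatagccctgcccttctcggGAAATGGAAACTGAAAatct
Gbp3, chr3:142559826-142560025, plus strand: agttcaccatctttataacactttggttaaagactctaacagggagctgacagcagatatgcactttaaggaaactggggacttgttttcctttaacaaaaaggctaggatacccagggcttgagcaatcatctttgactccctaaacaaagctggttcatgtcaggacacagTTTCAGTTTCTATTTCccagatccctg

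The last 3, from Isg15, Igtp and Irgm1, were called in no comparison. Isg15 holds 3 overlapping cores, the most among the 37 members searched.
Isg15, chr4:156200819-156201018, minus strand: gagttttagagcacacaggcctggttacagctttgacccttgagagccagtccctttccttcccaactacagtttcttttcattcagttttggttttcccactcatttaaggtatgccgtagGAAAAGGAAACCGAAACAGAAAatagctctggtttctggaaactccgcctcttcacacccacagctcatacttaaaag
Igtp, chr11:58199356-58199555, plus strand: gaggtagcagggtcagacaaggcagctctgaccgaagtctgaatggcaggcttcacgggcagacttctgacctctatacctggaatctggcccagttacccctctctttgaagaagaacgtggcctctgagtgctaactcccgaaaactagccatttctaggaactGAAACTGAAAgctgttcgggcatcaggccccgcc
Irgm1, chr11:48871421-48871620, minus strand: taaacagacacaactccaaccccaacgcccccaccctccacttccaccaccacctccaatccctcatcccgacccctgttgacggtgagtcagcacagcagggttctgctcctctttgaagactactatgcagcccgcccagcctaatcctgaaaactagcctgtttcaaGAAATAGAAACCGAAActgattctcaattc

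Lower, higher and uncalled members thus all include promoters with these letters. A match is a run of letters, not a tested binding site.

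The mean level of the 34 type I genes lay at 5.01 to 5.62 log2 CPM in the 5 Naive libraries. In Ag libraries it ran from 4.18 to 5.51 and in Ag+Costim libraries from 4.18 to 5.23. Ag 1 and Ag 4, at 5.51 and 5.42, lay within the Naive range. The low-input libraries Ag 2 and Ag 5 lay far lower at 4.18 and 4.26, as low as the lowest Ag+Costim libraries, and Ag 3 lay between at 4.76. Within Ag+Costim, libraries 2 and 3 at 4.88 and 5.23 stood above 1, 4 and 5, at 4.43, 4.18 and 4.33. The 4 transcription factors followed the same order of libraries within Ag at its ends, with Ag 1 and Ag 4 at 7.13 and 7.10 and Ag 2 lowest at 6.08. The 9 gamma-induced GTPases were more even, at 6.05 to 6.45 in the Naive libraries, 5.81 to 6.54 in the Ag libraries and 5.75 to 6.41 in the Ag+Costim libraries.

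**Figure D1:**
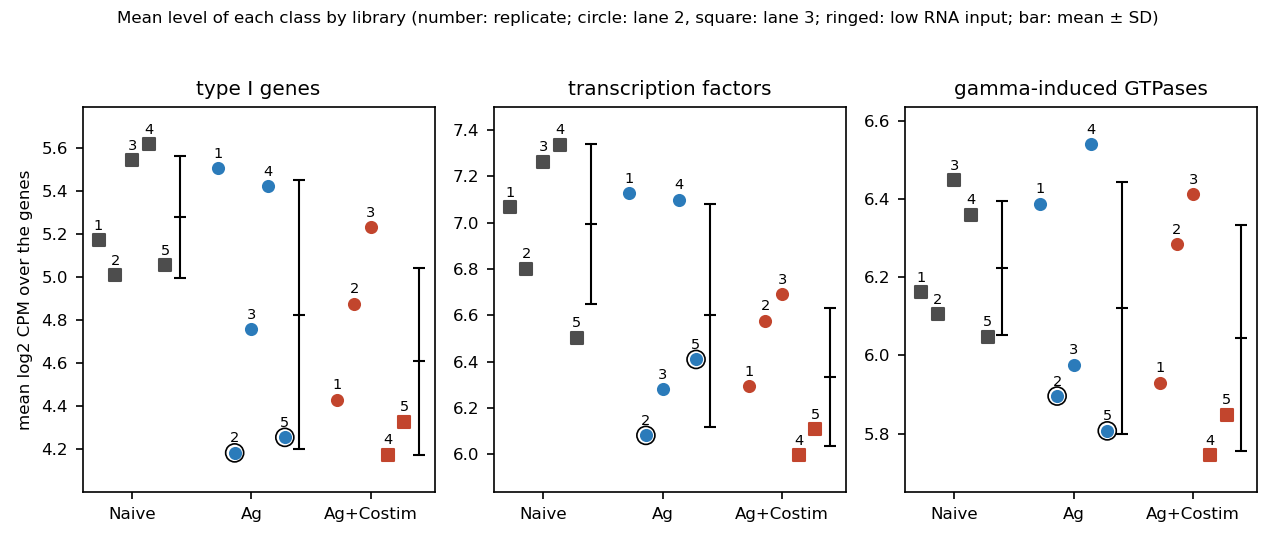
Mean log2 CPM over the genes of each class in each library, with the replicate number above each point, lanes as circles (lane 2) and squares (lane 3), low-input libraries ringed, and group mean ± SD beside the points. Ag libraries spread more widely than Naive libraries in all 3 classes, with Ag 1 and Ag 4 high. The ringed Ag 2 and Ag 5 are the lowest Ag libraries for the type I genes and the gamma-induced GTPases. For the transcription factors Ag 5, at 6.41 log2 CPM, lies above Ag 3, at 6.28.

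Relative to Naive cells, few members and few of all genes passed the test after antigen alone, and many of both after antigen with costimulation. In Ag against Naive, 1 of 47 members was called higher, against 3.05% of all genes, and 1 lower, against 3.66%. In Ag+Costim against Naive, 3 members were called higher, against 21% of all genes, and 16 lower, 34.0% of the members against 23.6% of all genes. In Ag+Costim against Ag, edgeR called no member, where it called 0.0346% of all genes. At an unadjusted p under 0.05 it found 1 member higher, against 7.28% of all genes, and 4 lower, against 19.5%, and DESeq2 called none higher, against 3.83%, and 2 lower, against 10.8%. The median log2 difference of the 47 members was -0.21 in Ag against Naive, -0.30 in Ag+Costim against Ag and -0.39 in Ag+Costim against Naive, beside 0.08, -0.10 and -0.08 over all genes tested. The Ag+Costim and Ag comparisons with Naive share the same 5 Naive libraries.

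Overlap of the groups was counted as well. In Ag+Costim against Naive, all 5 Ag+Costim libraries lay below all 5 Naive libraries for 8 members, 17.0%, against 22.3% of all genes, and above for 1 member, against 22.7%. In Ag against Naive the corresponding counts were 1 lower, against 2.09%, and 1 higher, against 1.76%. Between Ag+Costim and Ag they were 0 lower, against 2.1%, and 1 higher, against 4.23%.

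**Figure D2:**
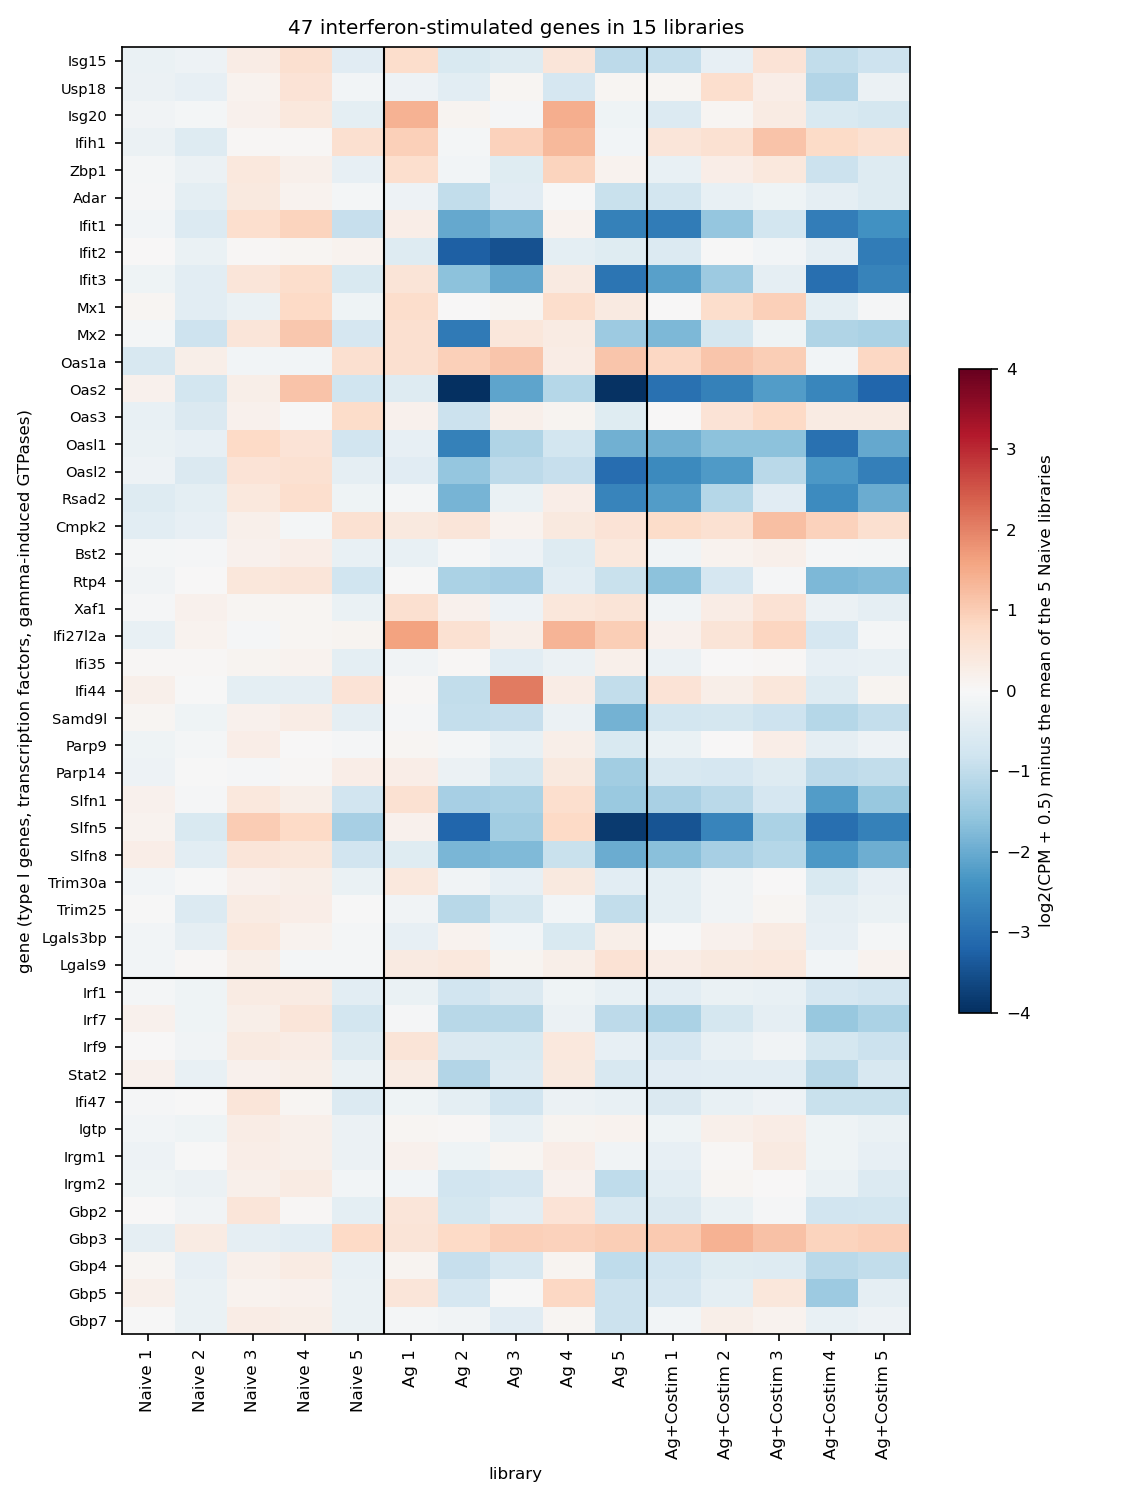
Each of the 47 members (rows, in 3 classes divided by lines) in each of the 15 libraries (columns), as log2(CPM + 0.5) minus the mean of the 5 Naive libraries, with colours saturating at 4 in either direction. The blue rows of Oas2, Oasl1, Oasl2, Slfn5 and Slfn8 in Ag 2, Ag 3, Ag 5 and all Ag+Costim libraries stand against the pale rows of Bst2, Igtp and Irgm1.

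**Figure D3:**
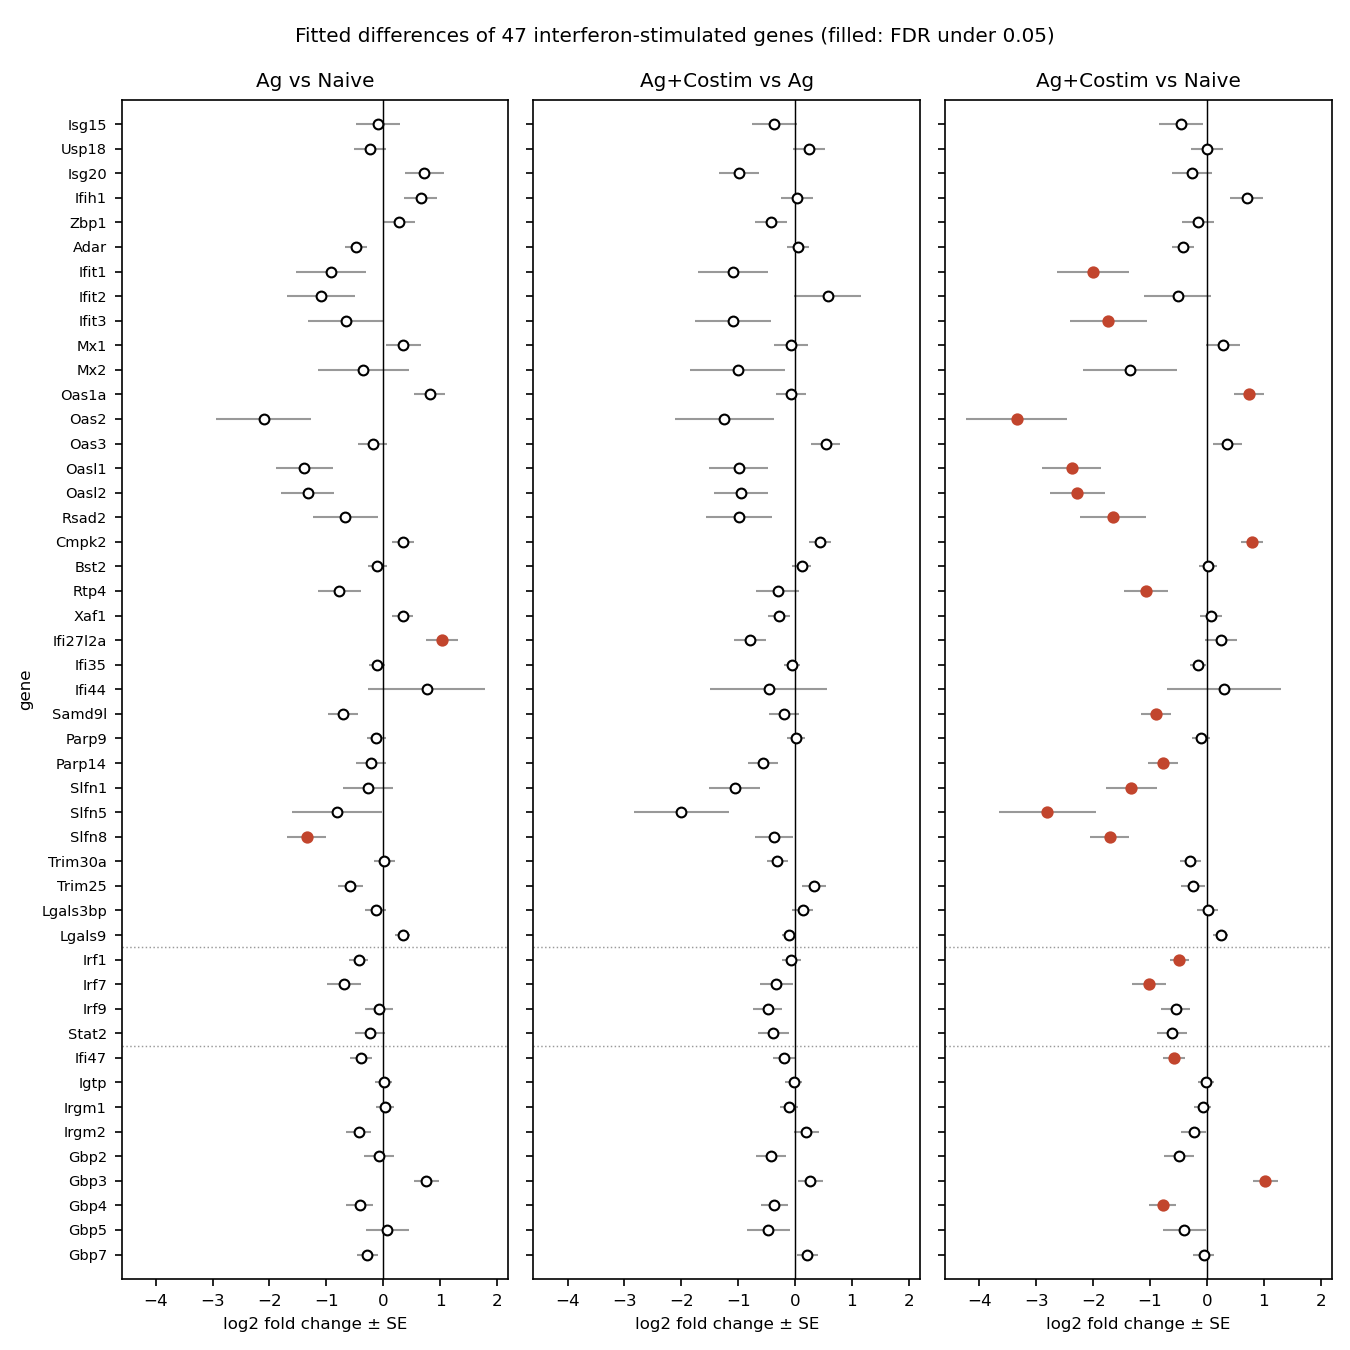
Fitted log2 fold change with its SE for each of the 47 members in each of the 3 comparisons, with members under an FDR of 0.05 filled. Ag+Costim against Naive holds 19 filled points, Ag against Naive 2 and Ag+Costim against Ag none.

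The IFIT proteins bind viral RNA that lacks the cap marks of the host. Their genes lie together on chromosome 19, between 34550694 and 34650009 in GENCODE M21 on GRCm38. Ifit1 measured 48.8, 35.96, 83.5, 98.4 and 27.9 CPM in Naive 1 to 5, 63.1, 12.5, 14.4, 57.8 and 7.70 CPM in Ag 1 to 5, and 7.16, 17.6, 31.8, 7.40 and 9.31 CPM in Ag+Costim 1 to 5. Ag 1 and Ag 4 lay within the Naive range, the other Ag libraries and all Ag+Costim libraries but Ag+Costim 3 below it. Ifit1 fell in Ag+Costim relative to Naive by 2.01 on the log2 scale (SE 0.63, edgeR FDR 0.0233), and its differences of -0.92 ± 0.61 (log2, SE, edgeR FDR 0.313) in Ag against Naive and -1.09 ± 0.62 (log2, SE, edgeR FDR 0.27) in Ag+Costim against Ag were not called. For Ifit3 the 5 Naive libraries held 28.6, 24.2, 45.99, 53.6 and 21.1 CPM, the 5 Ag libraries 46.4, 10.2, 7.40, 41.95 and 3.82 CPM, and the 5 Ag+Costim libraries 6.82, 11.6, 25.3, 3.57 and 4.73 CPM, each from replicate 1 to 5. As for Ifit1, Ag 1 and Ag 4 lay within the Naive range and Ag+Costim 3 overlapped it. Ifit3 differed by -1.74 ± 0.68 (log2, SE, edgeR FDR 0.0494) between Ag+Costim and Naive, close to the threshold. Of the 50-base stretches of Ifit3 transcripts 51.2% also occur in its copy Ifit3b, so the counts of both are uncertain, and Ifit3b differed by -1.82 ± 0.67 (log2, SE, edgeR FDR 0.0405) in the same comparison. Ifit2 was not called in any comparison. It stood between 24.5 and 32.7 CPM in Naive libraries and all Ag libraries were below these, with 2.62 and 2.18 CPM in Ag 2 and Ag 3 and 20.8 to 22.6 CPM in the other 3. The log2 difference was -1.09 ± 0.59 (log2, SE, edgeR FDR 0.228).

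The OAS genes split by member. Oas1a, Oas2 and Oas3 encode synthetases of the oligoadenylates that switch on RNase L, and Oasl1 encodes a relative without that activity. The 3 synthetase genes lie on chromosome 5 between 120730333 and 120907521, and Oasl1 and Oasl2 on the same chromosome between 114896936 and 114937915. Oas2 measured 11.5, 5.91, 11.97, 23.00 and 5.58 CPM in Naive 1 to 5, 6.97, 0, 1.96, 4.37 and 0.188 CPM in Ag 1 to 5, and 0.861, 1.14, 1.76, 1.23 and 0.695 CPM in Ag+Costim 1 to 5. No Ag+Costim library reached the lowest Naive library, and Ag 2 and Ag 5 were at or near 0. Oas2 had the largest fall of all members in Ag+Costim against Naive, at -3.34 ± 0.89 (log2, SE, edgeR FDR 0.0131). For Oasl1 the 5 Naive libraries held 6.66, 6.39, 14.5, 12.1 and 4.59 CPM, the 5 Ag libraries 6.37, 0.827, 3.27, 4.73 and 1.75 CPM, and the 5 Ag+Costim libraries 1.79, 2.28, 2.25, 0.584 and 1.60 CPM, each from replicate 1 to 5. The Oasl2 level was 14.7, 11.1, 24.9, 26.5 and 13.2 CPM in the Naive libraries, 12.4, 5.51, 8.06, 8.73 and 1.63 CPM in the Ag libraries and 2.52, 3.17, 7.73, 3.05 and 2.15 CPM in the Ag+Costim libraries, in order of replicate. For both Oasl genes the 5 Ag+Costim libraries lay below the 5 Naive libraries. Oasl1 fell by 2.38 on the log2 scale (SE 0.52, edgeR FDR 0.00655) and Oasl2 by 2.28 (SE 0.48, edgeR FDR 0.00573), and both calls, like that of Oas2, held without any 1 library. Oas1a measured 8.58, 16.2, 12.5, 12.6 and 21.6 CPM in Naive 1 to 5, 21.6, 27.2, 30.3, 16.8 and 30.2 CPM in Ag 1 to 5, and 24.9, 29.99, 27.4, 12.7 and 24.9 CPM in Ag+Costim 1 to 5. Here the treated libraries tended to be the higher ones, with Ag+Costim 4 as low as the Naive libraries and Naive 5 as high as Ag 1. Oas1a rose in Ag+Costim relative to Naive by 0.75 ± 0.27 (log2, SE, edgeR FDR 0.0363), and was not called in Ag against Naive at 0.82 ± 0.27 (log2, SE, edgeR FDR 0.0752). Oas1a shares 57.6% of its 50-base stretches with Oas1g, which differed by 0.74 ± 0.28 (log2, SE, edgeR FDR 0.0437), so that these are not separate results. Oas3 was not called, at 0.36 ± 0.26 (log2, SE, edgeR FDR 0.255).

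Viperin, the product of Rsad2, makes a nucleotide that stops viral RNA chains, and Cmpk2, its neighbour on chromosome 12 (26442746 to 26479837 for both), is a mitochondrial nucleotide kinase. The 2 neighbours moved in opposite directions. For Rsad2 the 5 Naive libraries held 7.68, 8.44, 15.4, 18.5 and 9.90 CPM, the 5 Ag libraries 10.8, 2.76, 9.36, 13.7 and 1.38 CPM, and the 5 Ag+Costim libraries 1.99, 4.88, 8.15, 1.56 and 2.50 CPM, each from replicate 1 to 5. Ag 2 and Ag 5 were lower than every Naive library, and of the Ag+Costim libraries only Ag+Costim 3 reached the Naive range. Rsad2 fell by 1.65 on the log2 scale (SE 0.59, edgeR FDR 0.0357) in Ag+Costim against Naive. The Cmpk2 level was 22.5, 23.7, 34.4, 28.6 and 46.5 CPM in the Naive libraries, 39.3, 42.3, 32.9, 39.6 and 44.4 CPM in the Ag libraries and 49.8, 46.2, 69.8, 56.8 and 46.8 CPM in the Ag+Costim libraries, in order of replicate. Naive 5 was the only Naive library that reached the Ag+Costim values. Cmpk2 rose by 0.79 ± 0.19 (log2, SE, edgeR FDR 0.00892) in Ag+Costim against Naive. It was also the only member for which all Ag+Costim libraries lay above all Ag libraries, and that log2 difference of 0.44 ± 0.19 (log2, SE, edgeR FDR 0.157) did not pass the test.

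The Schlafen genes, a family first described for restraining the growth of T cells, lie on chromosome 11 between 82951349 and 83122670. All 3 fell in Ag+Costim relative to Naive. Slfn8 measured 129, 79.7, 148, 145 and 62.5 CPM in Naive 1 to 5, 76.97, 29.5, 31.4, 57.9 and 26.9 CPM in Ag 1 to 5, and 33.5, 42.2, 48.00, 21.2 and 27.5 CPM in Ag+Costim 1 to 5. The 5 Naive libraries were above all Ag+Costim libraries, and Ag 1 was the only Ag library that overlapped them. Slfn8 was called lower in both comparisons with Naive, with differences of -1.34 ± 0.34 (log2, SE, edgeR FDR 0.0335) in Ag and -1.71 ± 0.34 (log2, SE, edgeR FDR 0.00466) in Ag+Costim. The first of these calls was lost without Naive 1, Naive 3, Naive 4, Ag 2, Ag 3, Ag 5, Ag+Costim 1 or Ag+Costim 4, and the second held without any 1 library. For Slfn5 the 5 Naive libraries held 23.8, 13.8, 43.98, 37.7 and 8.31 CPM, the 5 Ag libraries 24.2, 1.93, 7.84, 37.6 and 1.06 CPM, and the 5 Ag+Costim libraries 1.52, 3.01, 8.57, 2.21 and 2.92 CPM, each from replicate 1 to 5. Ag 1 and Ag 4 were within the Naive range, Ag 2 and Ag 5 were far below it, and Ag+Costim 3 overlapped Naive 5. Slfn5 fell by 2.81 on the log2 scale (SE 0.85, edgeR FDR 0.0204) in Ag+Costim against Naive. Its difference from Ag, -1.999 ± 0.83 (log2, SE, edgeR FDR 0.146), was the largest of any member between these groups but was not called. The Slfn1 level was 215, 186, 253, 222 and 112 CPM in the Naive libraries, 293, 75.9, 79.3, 301 and 67.6 CPM in the Ag libraries and 77.1, 89.97, 119, 40.4 and 65.96 CPM in the Ag+Costim libraries, in order of replicate. Every Naive library was exceeded by Ag 1 and Ag 4, whereas Ag 2, Ag 3 and Ag 5 were below all of them, and Ag+Costim 3 passed Naive 5. Slfn1 differed by -1.33 ± 0.45 (log2, SE, edgeR FDR 0.0296) between Ag+Costim and Naive. The library kit does not mark strand, and 7.39% of the 50-base stretches of Slfn5 occur in the neighbouring gene Slfn5os, whose reads cannot be told apart from its own there.

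**Figure D4:**
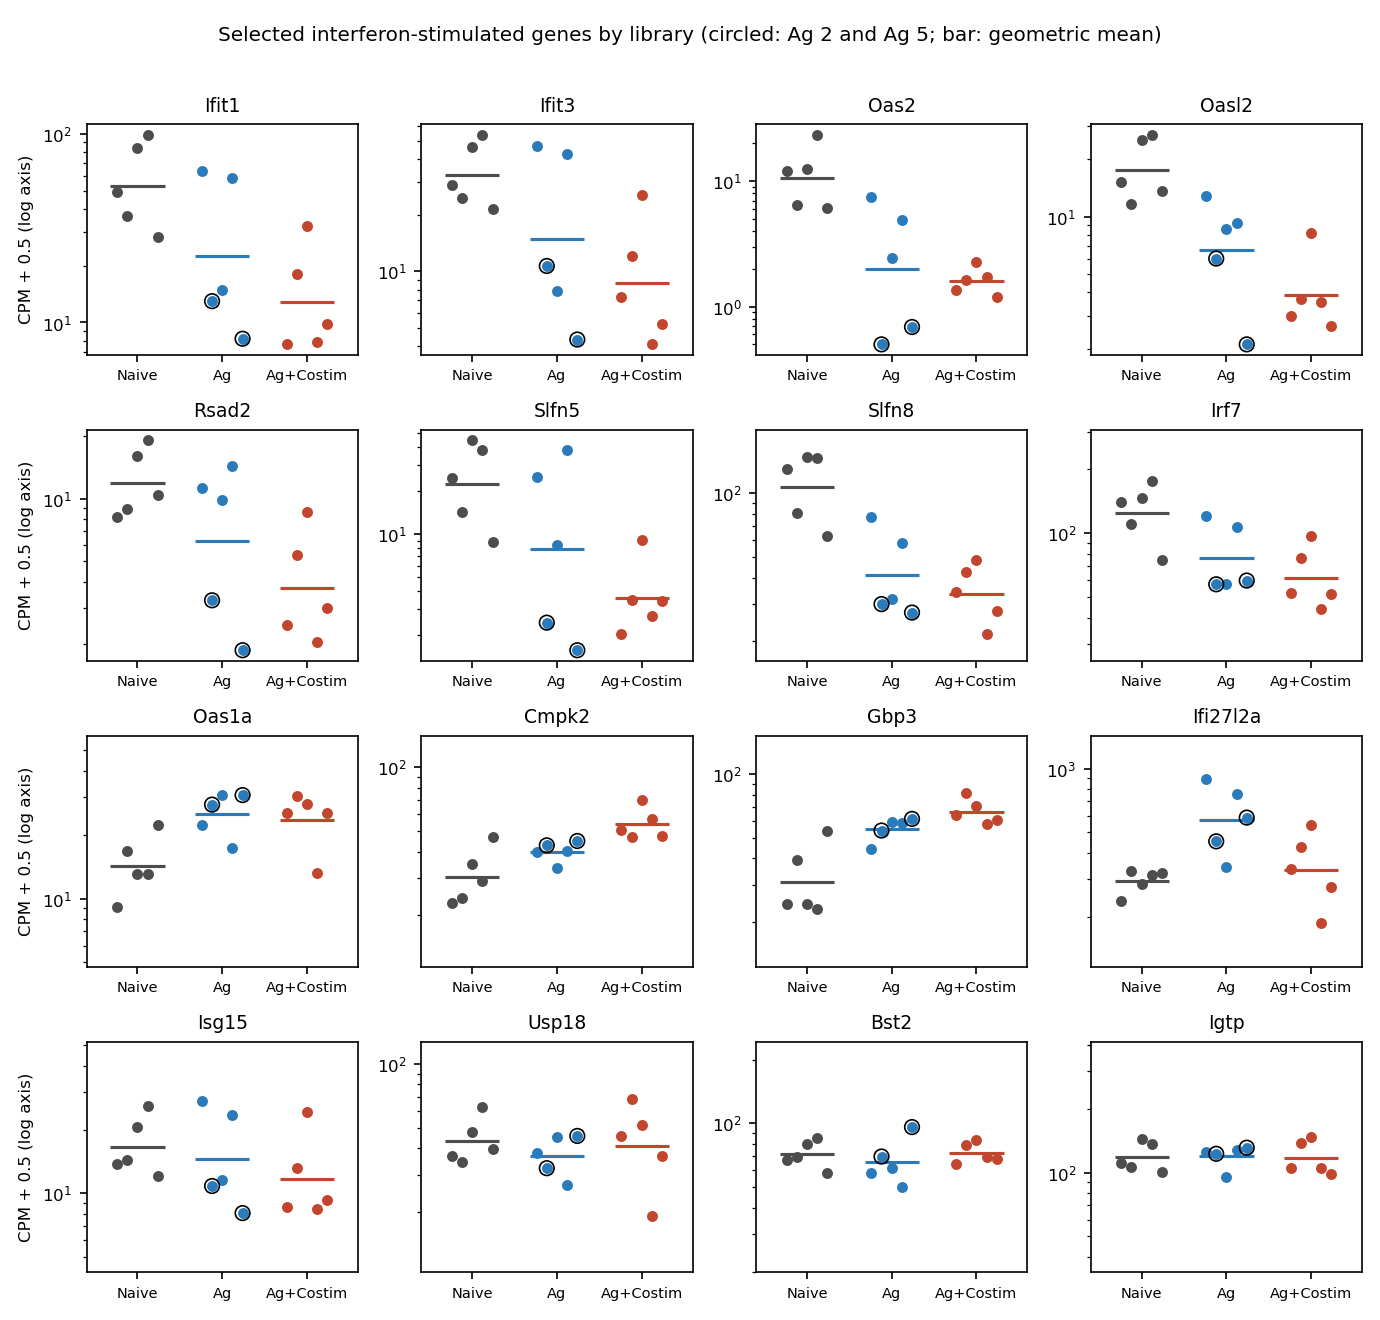
CPM + 0.5 on a log axis in each library for 16 members, with the geometric mean of each group as a bar and Ag 2 and Ag 5 circled. The first 2 rows show genes lower in Ag+Costim than in Naive libraries, with the circled libraries among the lowest of the Ag group, the third row genes that were called higher, and the last row members that were not called.

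Other members of the type I class that were called lower in Ag+Costim against Naive were Rtp4, a chaperone of membrane receptors (-1.07 ± 0.38 on the log2 scale, edgeR FDR 0.0364), Samd9l, an inhibitor of translation (-0.89 ± 0.27 on the log2 scale, edgeR FDR 0.019), and Parp14, an ADP-ribosyltransferase (-0.77 ± 0.26 on the log2 scale, edgeR FDR 0.0311). For Samd9l and Parp14 the 5 Ag+Costim libraries lay below the 5 Naive libraries, at 74.7 to 101 against 130 to 205 CPM and at 24.9 to 36.2 against 45.0 to 62.3 CPM. For Rtp4 they overlapped, at 26.9 to 91.8 against 53.8 to 132 CPM.

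Ifi27l2a, which encodes a small mitochondrial membrane protein, was the 1 member called higher after antigen alone. For Ifi27l2a the 5 Naive libraries held 238, 327, 284, 313 and 321 CPM, the 5 Ag libraries 891, 453, 345, 756 and 587 CPM, and the 5 Ag+Costim libraries 335, 426, 539, 186 and 277 CPM, each from replicate 1 to 5. All Ag libraries were above all Naive libraries, Ag 1 and Ag 4 by the most, and Ag+Costim libraries lay on both sides of the Naive range. It rose by 1.03 ± 0.28 (log2, SE, edgeR FDR 0.0428) in Ag against Naive. The call was close to the threshold and was lost without any 1 of 12 libraries (Naive 1 to 4, Ag 1, 2, 4 and 5, and Ag+Costim 1, 2, 4 and 5), with edgeR FDR up to 0.12. In Ag+Costim against Ag the difference of -0.78 ± 0.28 (log2, SE, edgeR FDR 0.107) was not called by edgeR and was called by DESeq2 (log2 difference -0.81, DESeq2 FDR 0.0449).

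Several genes usually taken as the core of the response were not called in any comparison. Isg15 encodes the ubiquitin-like modifier itself. Isg15 measured 13.3, 13.9, 19.96, 25.4 and 11.6 CPM in Naive 1 to 5, 26.8, 10.3, 11.1, 22.98 and 7.58 CPM in Ag 1 to 5, and 8.08, 12.7, 23.8, 7.98 and 8.83 CPM in Ag+Costim 1 to 5. Ag 1 was above all Naive libraries and Ag 4 and Ag+Costim 3 above all but Naive 4. Ag 2, Ag 3, Ag 5 and Ag+Costim 1, 4 and 5 were below all of them, so that the groups overlapped. Its log2 difference was -0.46 ± 0.39 (log2, SE, edgeR FDR 0.342) in Ag+Costim against Naive. Usp18 encodes the protease that removes Isg15 from its targets and blocks the type I receptor. The Usp18 level was 36.1, 33.9, 47.1, 61.9 and 39.02 CPM in the Naive libraries, 37.3, 31.7, 44.6, 26.4 and 45.2 CPM in the Ag libraries and 45.3, 68.1, 50.9, 18.8 and 36.3 CPM in the Ag+Costim libraries, in order of replicate. The groups overlapped throughout, Ag+Costim libraries spanning both the lowest and the highest value, and the log2 difference from Naive was 0.01 ± 0.28 (log2, SE, edgeR FDR 0.986).

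Bst2, or tetherin, holds budding virions at the membrane. Bst2 measured 66.7, 68.9, 79.5, 84.5 and 58.1 CPM in Naive 1 to 5, 57.7, 69.2, 61.4, 49.6 and 95.5 CPM in Ag 1 to 5, and 64.1, 78.8, 82.6, 68.8 and 67.3 CPM in Ag+Costim 1 to 5. The 3 groups overlapped and the difference of Ag+Costim from Naive was 0.01 ± 0.16 (log2, SE, edgeR FDR 0.947). Mx1 encodes a dynamin-like antiviral GTPase. For Mx1 the 5 Naive libraries held 9.29, 6.39, 7.27, 15.6 and 7.64 CPM, the 5 Ag libraries 14.6, 8.89, 9.36, 14.7 and 11.5 CPM, and the 5 Ag+Costim libraries 8.94, 14.6, 17.6, 6.55 and 8.55 CPM, each from replicate 1 to 5. None of its groups stood apart, with 0.29 ± 0.30 (log2, SE, edgeR FDR 0.435) for Ag+Costim against Naive. Isg20, a nuclease that degrades single-stranded RNA, had its highest values in Ag 1 and Ag 4. The Isg20 level was 13.1, 13.4, 16.3, 19.2 and 10.9 CPM in the Naive libraries, 38.4, 15.4, 13.9, 40.2 and 12.5 CPM in the Ag libraries and 9.67, 15.1, 18.2, 9.21 and 8.69 CPM in the Ag+Costim libraries, in order of replicate. The other 3 Ag libraries lay within the Naive range. Its difference of -0.99 ± 0.35 (log2, SE, edgeR FDR 0.106) in Ag+Costim against Ag was not called by edgeR and was called by DESeq2 (log2 difference -1.02, DESeq2 FDR 0.0465).

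The remaining type I members were not called in any comparison. Their log2 differences in Ag+Costim against Naive were 0.70 for Ifih1, the RNA sensor MDA5 (edgeR FDR 0.0581), and -0.43 for Adar, the RNA editing enzyme (edgeR FDR 0.0859). They were -0.15 for Zbp1, a sensor of nucleic acids in the Z form, -0.10 for Parp9, -0.16 for Ifi35, 0.07 for Xaf1, -0.29 for Trim30a and -0.24 for Trim25, a ubiquitin ligase of the RNA-sensing pathway. Lgals9, a ligand of the inhibitory receptor Tim-3, differed by 0.24 and Lgals3bp by 0.01. Mx2 and Ifi44 were low, at most 7.09 and 3.70 CPM in any library, and their differences of -1.36 ± 0.82 (log2, SE, edgeR FDR 0.178) and 0.30 ± 1.00 (log2, SE, edgeR FDR 0.818) had wide errors.

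The transcription factors of the response were all lower in Ag+Costim than in Naive libraries by their point estimates, and 2 of the 4 were called. Irf7 drives transcription of the interferon genes themselves. Irf7 measured 139, 110.5, 146, 175 and 74.05 CPM in Naive 1 to 5, 119.6, 56.9, 57.3, 106 and 59.3 CPM in Ag 1 to 5, and 51.6, 75.99, 96.8, 43.3 and 51.1 CPM in Ag+Costim 1 to 5. Ag 1 and Ag 4 lay within the Naive range, and of the Ag+Costim libraries 2 and 3 were above Naive 5 while the others were below all Naive libraries. Irf7 fell by 1.02 on the log2 scale (SE 0.30, edgeR FDR 0.0177) in Ag+Costim against Naive. Irf1, which acts mainly downstream of interferon gamma, overlapped between the groups. For Irf1 the 5 Naive libraries held 273, 259, 361, 362 and 217 CPM, the 5 Ag libraries 239.5, 168, 193, 258 and 236 CPM, and the 5 Ag+Costim libraries 217, 243, 235, 182 and 171 CPM, each from replicate 1 to 5. Only Naive 5 was among the treated values. Irf1 fell by 0.49 on the log2 scale (SE 0.17, edgeR FDR 0.0321) in the same comparison.

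Stat2 and Irf9 are parts of ISGF3. The Stat2 level was 57.3, 40.8, 56.9, 59.8 and 41.6 CPM in the Naive libraries, 63.2, 22.4, 34.6, 66.3 and 32.1 CPM in the Ag libraries and 36.9, 37.96, 37.7, 23.4 and 32.2 CPM in the Ag+Costim libraries, in order of replicate. Every Ag+Costim library was below every Naive library for Stat2, but the difference of -0.61 ± 0.27 (log2, SE, edgeR FDR 0.0725) was not called. Irf9 measured 148, 132, 185, 179 and 101 CPM in Naive 1 to 5, 209.6, 96.9, 95.2, 194 and 115 CPM in Ag 1 to 5, and 90.7, 118, 132, 89.02 and 79.7 CPM in Ag+Costim 1 to 5. Irf9 was above all Naive libraries in Ag 1 and Ag 4, and its difference of -0.55 ± 0.25 (log2, SE, edgeR FDR 0.0823) between Ag+Costim and Naive did not pass.

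The gamma-induced GTPases coat and disrupt vacuoles that hold intracellular pathogens. Of 9 members 2 were called lower and 1 higher in Ag+Costim against Naive, and none in the other comparisons. Gbp3 was the exception in direction, and its neighbours Gbp2, Gbp5 and Gbp7 on chromosome 3 (142493978 to 142638008 for the 4 genes) were not called. For Gbp3 the 5 Naive libraries held 23.95, 38.96, 23.8, 22.5 and 53.4 CPM, the 5 Ag libraries 43.8, 53.7, 59.2, 58.2 and 60.98 CPM, and the 5 Ag+Costim libraries 63.3, 80.95, 69.9, 57.7 and 60.1 CPM, each from replicate 1 to 5. All Ag+Costim libraries exceeded all Naive libraries, and Naive 5 was the highest Naive library, above Ag 1. Gbp3 rose by 1.03 ± 0.22 (log2, SE, edgeR FDR 0.00598) in Ag+Costim against Naive, a call that held without any 1 library, and differed by 0.76 ± 0.22 (log2, SE, edgeR FDR 0.0517) in Ag against Naive, just short of the threshold. Gbp3 shares 3.75% of its 50-base stretches with Gbp7, and among members not yet named for shared sequence the share ran highest in Slfn8 (14.6%), Adar (14.4%), Gbp7 (12.7%), Igtp (11.8%), Rtp4 (11.6%) and Ifi35 (10.4%). Gbp4 fell by 0.78 on the log2 scale (SE 0.24, edgeR FDR 0.0216), with 79.9 to 122 CPM in Ag+Costim and 136 to 214 CPM in Naive libraries. Ifi47, an immunity-related GTPase, fell by 0.58 on the log2 scale (SE 0.19, edgeR FDR 0.0269), with overlapping ranges of 167 to 266 and 210 to 436 CPM.

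Igtp and Irgm1, which regulates the GTPases of its own family, had differences near 0. The Igtp level was 110.3, 105, 144, 136 and 100.4 CPM in the Naive libraries, 125, 122, 95.2, 127 and 130.5 CPM in the Ag libraries and 105, 137, 146, 104 and 98.00 CPM in the Ag+Costim libraries, in order of replicate. Irgm1 measured 108, 124, 151, 144 and 107 CPM in Naive 1 to 5, 140.1, 110.4, 133, 149.7 and 115 CPM in Ag 1 to 5, and 99.6, 130.1, 159.9, 111 and 101 CPM in Ag+Costim 1 to 5. The 3 groups of Igtp and of Irgm1 overlapped. Their differences in Ag+Costim against Naive were -0.02 ± 0.15 (log2, SE, edgeR FDR 0.931) and -0.08 ± 0.15 (log2, SE, edgeR FDR 0.691). For Gbp2 the 5 Naive libraries held 69.9, 62.5, 96.8, 71.9 and 53.4 CPM, the 5 Ag libraries 96.7, 42.9, 51.8, 102 and 44.4 CPM, and the 5 Ag+Costim libraries 46.1, 58.1, 66.9, 41.1 and 41.4 CPM, each from replicate 1 to 5. The Gbp7 level was 119.6, 101, 148, 143 and 100.4 CPM in the Naive libraries, 113, 110.0, 88.9, 127 and 66.2 CPM in the Ag libraries and 111, 141, 135, 97.5 and 105 CPM in the Ag+Costim libraries, in order of replicate. For Gbp2 Ag 1 was level with the highest Naive library and Ag 4 above it, and for Gbp7 only Ag 3, Ag 5 and Ag+Costim 4 were below the Naive range. Gbp2 differed by -0.48 ± 0.26 (log2, SE, edgeR FDR 0.137) and Gbp7 by -0.06 ± 0.18 (log2, SE, edgeR FDR 0.805) from Naive in Ag+Costim. Irgm2 and Gbp5 differed by -0.23 and -0.39 and were not called.

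In the unit TPM, which divides counts by transcript length and scales to a common total, members differed widely in level, with medians of 45.1 for the Naive group, 31.1 for Ag and 29.6 for Ag+Costim. Ifi27l2a stood first in every group, at 1038 ± 119 TPM (SD, n = 5) in the Naive libraries, 1924 ± 916 in the Ag libraries and 1116 ± 433 in the Ag+Costim libraries. In Naive libraries Ifi47, Irf1 and Lgals9 followed at 315 ± 94.5, 231 ± 62.0 and 227 ± 30.9 TPM, neighbours that do not differ beyond their SD. The lowest member in every group was Ifi44. Oas2 came next to it in Ag and Ag+Costim, with 0.424 TPM in Ag+Costim against 5.68 in Naive. The number of members above 100 TPM was 10 for the Naive group, 8 for Ag and 7 for Ag+Costim. Of the members called lower in Ag+Costim against Naive, Ifi47, Irf1, Slfn1 (174 ± 54.0 TPM), Rtp4 (121 ± 50.4 TPM) and Irf7 (104 ± 35.0 TPM) were above 100 TPM in Naive libraries.

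The median biological coefficient of variation of the members was 0.302 and that of all genes 0.302, but single members reached 1.00. Of the 19 calls in Ag+Costim against Naive, 6 held in each of the 15 fits that left out 1 library (Oas2, Oasl1, Oasl2, Slfn8, Cmpk2 and Gbp3), and 10 were lost in at least 5 of them. The number of members called was 10, 9 and 6 without Naive 1, Naive 3 and Naive 4, and 10, 7 and 9 without Ag+Costim 1, Ag+Costim 4 and Ag+Costim 5, fits in which 21.6% to 31.3% of all genes were called against 44.7% with all libraries. Samd9l, Slfn5 and Irf7 lost the call without Naive 4 or Ag+Costim 4, and Gbp4 without Naive 1, 3 or 4 or Ag+Costim 4 or 5. Ifit1 lost it without Naive 3 or 4 or Ag+Costim 1, 4 or 5, and Slfn1 and Rsad2 without Naive 1, 3 or 4 or Ag+Costim 1, 2, 4 or 5. Irf1 and Ifi47 lost it without Naive 1, 3 or 4, Ag 2, or Ag+Costim 1, 4 or 5, and Ifit3 and Rtp4 without Naive 1 to 4, Ag 2, or Ag+Costim 1, 2, 4 or 5. Parp14 lost it without Naive 1, 3, 4 or 5, Ag 2, or Ag+Costim 1, 2, 4 or 5, and Oas1a without Naive 1 to 4 or Ag+Costim 1, 2, 3 or 5. The 19 members kept their sign in each of these fits.

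Libraries were run in 2 lanes. All Naive libraries and Ag+Costim 4 and 5 shared lane 3, and all Ag libraries and Ag+Costim 1 to 3 shared lane 2, so that Ag and Naive were never in the same lane and their difference cannot be told apart from that of the lanes except through Ag+Costim. Within lane 3, Ag+Costim against Naive gave 18 members lower, against 20.6% of all genes, and 0 higher, against 14.1%. These 18 included 15 of the 16 members called lower above, and the exception was Irf1 (-0.74, edgeR FDR 0.0555). Differences were larger, such as -2.83 for Ifit1, -3.07 for Ifit3 and -2.57 for Rsad2. Of its group this fit kept only Ag+Costim 4 and 5. Their mean levels of the type I class, 4.18 and 4.33 log2 CPM, were the lowest in Ag+Costim. The 3 members called higher kept their sign within lane 3, at 0.87 for Gbp3, 0.74 for Cmpk2 and 0.40 for Oas1a, and were not called. With lane as a term in the fit of all libraries, 5 members were called in Ag+Costim against Naive, all lower (Oasl1, Oasl2, Rtp4, Slfn8 and Ifi47), 10.6% against 3.94% of all genes, where 1.49% of all genes were higher, and none in the other comparisons, where 9 and 1 members had an unadjusted p under 0.05.

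The comparison of Ag+Costim with Ag asks what costimulation adds to antigen, and the Ag libraries differed most among themselves. Both low-input libraries, Ag 2 and Ag 5, were below both Ag 1 and Ag 4 in 36 of 47 members, 76.6%, against 41.1% of all genes, and above both in 6, 12.8%, against 37.4% of all genes. Ag 1 and Ag 4 also carried more B cell and dendritic cell marker counts than Ag 2 and Ag 5, and Ag 3 had the highest sums of both. The mean type I level of Ag 3, 4.76 log2 CPM, lay above Ag 2 and Ag 5 and below Ag 1 and Ag 4. The part of cell make-up or of input in these values was not tested. In a fit without Ag 2 and Ag 5, an alternative chosen after the values were seen, Ag+Costim against Ag gave 10 members lower, 21.3% against 26.7% of all genes, and 3 higher, 6.38% against 23.9%. The 10 were Slfn5, Oas2, Ifit1, Mx2, Rsad2, Slfn1, Oasl1, Isg20, Oasl2 and Parp14, with differences from -2.60 for Slfn5 to -0.70 for Parp14, and the 3 were Cmpk2 at 0.69, Lgals3bp at 0.57 and Bst2 at 0.55. Without Ag 5 alone, 4 members were called lower (Slfn5, Oasl2, Isg20 and Parp14), 8.51% against 15.6% of all genes, and none higher, against 4.17%. Within lane 2, which held the Ag group and Ag+Costim 1 to 3, edgeR called 0 members and 0% of all genes (3 members at an unadjusted p under 0.05). Differences there were -1.72 for Slfn5, -0.72 for Ifit1, -0.67 for Oasl1 and -0.58 for Rsad2. Ag+Costim 1 to 3 had the highest mean levels of the type I class in their group, 4.43 to 5.23 log2 CPM.

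In Ag against Naive, Naive 5 mattered most. It carried the myeloid counts given above and was among the lower Naive libraries for Ifit1, Slfn1, Slfn8 and Irf7 and the highest for Oas1a, Cmpk2 and Gbp3. Without it 8 members were called, Gbp3 (1.02), Ifi27l2a (1.07), Oas1a (1.02), Ifih1 (0.86) and Cmpk2 (0.55) higher, 10.6% of the members against 12.6% of all genes, and Oasl1 (-1.55), Slfn8 (-1.49) and Irf1 (-0.51) lower, 6.38% against 8.9%. Without Ag 1 there were 4 calls. There was 1 without Naive 2, Ag 3, Ag+Costim 2 or Ag+Costim 5, and there were 0 without Naive 1, Naive 3, Naive 4, Ag 2, Ag 5, Ag+Costim 1 or Ag+Costim 4. The shares of all genes called in the fits with 4, 1 or 0 calls are not given here. These counts are therefore not read as particular to the members. Whether the myeloid counts have a part in the Naive 5 values was not tested.

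The genes that make, receive and limit interferon signals were read from a list of 40 pathway genes, of which 19 passed the filter. In Ag against Naive 1 of them was called higher and 4 lower, and in Ag+Costim against Naive 4 higher and 6 lower, beside the shares of all genes given above (3.05% higher and 3.66% lower, and 21% and 23.6%). None was called in Ag+Costim against Ag, where 1 had an unadjusted p under 0.05. Of 21 ligand genes 20 were below the filter. These 20 genes, the type I and type III interferons, held 57 counts together in the Naive group, 102 in Ag and 7 in Ag+Costim, and their summed level was 13.7 CPM in Ag 3 and at most 2.07 CPM in any other library. Ag 3 also had the most genes with a count, 44408, and the lowest share of reads counted, 16.9%. None of the 20 genes had more than 8 counts in a group, so these counts are not read as interferon transcription. The ligand gene that passed the filter was Ifng, interferon gamma, the main cytokine of CD8+ T cells in this family. Ifng measured 1.54, 2.05, 0.671, 1.67 and 5.32 CPM in Naive 1 to 5, 10.8, 4.41, 5.01, 13.1 and 10.6 CPM in Ag 1 to 5, and 5.63, 5.36, 6.75, 5.71 and 6.12 CPM in Ag+Costim 1 to 5. Naive 5 was the highest Naive library, above Ag 2 and Ag 3 but below every Ag+Costim library. Ifng rose by 1.98 ± 0.45 (log2, SE, edgeR FDR 0.0222) in Ag and by 1.40 ± 0.45 (log2, SE, edgeR FDR 0.0244) in Ag+Costim relative to Naive, and the difference of -0.58 ± 0.43 (log2, SE, edgeR FDR 0.397) between the treated groups was not called. The first call was lost without Naive 1, 3 or 4 and the second without Naive 1 or 4.

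Among the receptors, Ifngr2 had the largest change of any gene on the list. Its product is the signalling chain of the interferon gamma receptor. For Ifngr2 the 5 Naive libraries held 42.5, 30.2, 57.5, 46.8 and 10.7 CPM, the 5 Ag libraries 13.2, 3.24, 10.5, 5.73 and 3.07 CPM, and the 5 Ag+Costim libraries 1.59, 1.22, 2.60, 1.43 and 1.53 CPM, each from replicate 1 to 5. Every Ag+Costim library was below every Ag library and every Naive library. Ifngr2 fell by 2.42 on the log2 scale (SE 0.47, edgeR FDR 0.0135) in Ag and by 4.48 on the log2 scale (SE 0.52, edgeR FDR 0.00059) in Ag+Costim relative to Naive, both held without any 1 library, and the difference of -2.06 ± 0.49 (log2, SE, edgeR FDR 0.0807) between Ag+Costim and Ag was not called. The ligand-binding chain Ifngr1 was not called (-0.11 ± 0.20 on the log2 scale, edgeR FDR 0.674 in Ag+Costim against Naive). Of the type I receptor chains, Ifnar1 fell in Ag+Costim by 0.77 on the log2 scale (SE 0.26, edgeR FDR 0.0312), a call lost without Naive 1, 3 or 4, Ag 2, or Ag+Costim 1, 2, 4 or 5, and Ifnar2 was not called (0.07 ± 0.12 on the log2 scale, edgeR FDR 0.65). Il10rb, shared with the receptor of type III interferon, was not called either, and Ifnlr1 was below the filter.

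Of the kinases, Jak1 fell in Ag+Costim by 0.53 on the log2 scale (SE 0.14, edgeR FDR 0.0126), lost without Ag+Costim 4, and Jak2 and Tyk2 were not called. Of 5 inhibitors tested 3 were lower in both treated groups. Socs1, the feedback inhibitor of the Jak kinases, stood at 22.3 to 46.2 CPM in Naive, 8.54 to 24.1 in Ag and 7.65 to 16.4 in Ag+Costim libraries. It fell by 1.18 on the log2 scale (SE 0.29, edgeR FDR 0.0284) in Ag and by 1.53 on the log2 scale (SE 0.29, edgeR FDR 0.00376) in Ag+Costim against Naive. Socs3, which limits Stat3 signalling, fell by 2.12 on the log2 scale (SE 0.45, edgeR FDR 0.0176) and by 2.59 on the log2 scale (SE 0.46, edgeR FDR 0.00297), and Pias1, a SUMO ligase that restrains the pathway, by 0.55 on the log2 scale (SE 0.15, edgeR FDR 0.0476) and by 0.49 on the log2 scale (SE 0.15, edgeR FDR 0.023). The Ag calls of Socs1, Socs3 and Pias1 were each lost without Naive 1, 3 or 4, that of Socs1 also without Ag 2, Ag 5 or Ag+Costim 4, and that of Pias1 held only without Naive 5, Ag 1 or Ag 4. In Ag+Costim the calls of Socs1 and Socs3 held without any 1 library, and that of Pias1 was lost without Naive 1, 3 or 4, Ag 2 or Ag+Costim 4. The phosphatases Ptpn2 and Ptpn6 were not called, although all Ag+Costim libraries were above all Naive libraries for Ptpn2.

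Irf4, Irf5 and Irf8, factors of activated lymphocytes and of myeloid and B cells, were called higher in Ag+Costim than in Naive libraries, by 1.57 ± 0.60 (log2, SE, edgeR FDR 0.0467), 1.73 ± 0.54 (log2, SE, edgeR FDR 0.0233) and 1.94 ± 0.54 (log2, SE, edgeR FDR 0.0158). Naive 5, with the highest myeloid marker sum, held the highest Naive value of each, 34.2, 14.4 and 40.8 CPM against 2.31 to 9.54, 1.64 to 9.94 and 4.77 to 21.7 in the other Naive libraries. The 11 myeloid markers summed to 93.4 to 197 CPM in Ag+Costim and, Naive 5 aside, to 15.2 to 181 in Naive libraries, and 1 of the 11 was called higher and 2 lower. The part of myeloid RNA in these 3 genes was not tested. The Irf8 call held without any 1 library, that of Irf5 was lost without Naive 1 or 4, and that of Irf4 held only without Naive 5 or Ag 1, 2, 3 or 5. Irf2 and Irf3 were not called.

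**Figure D5:**
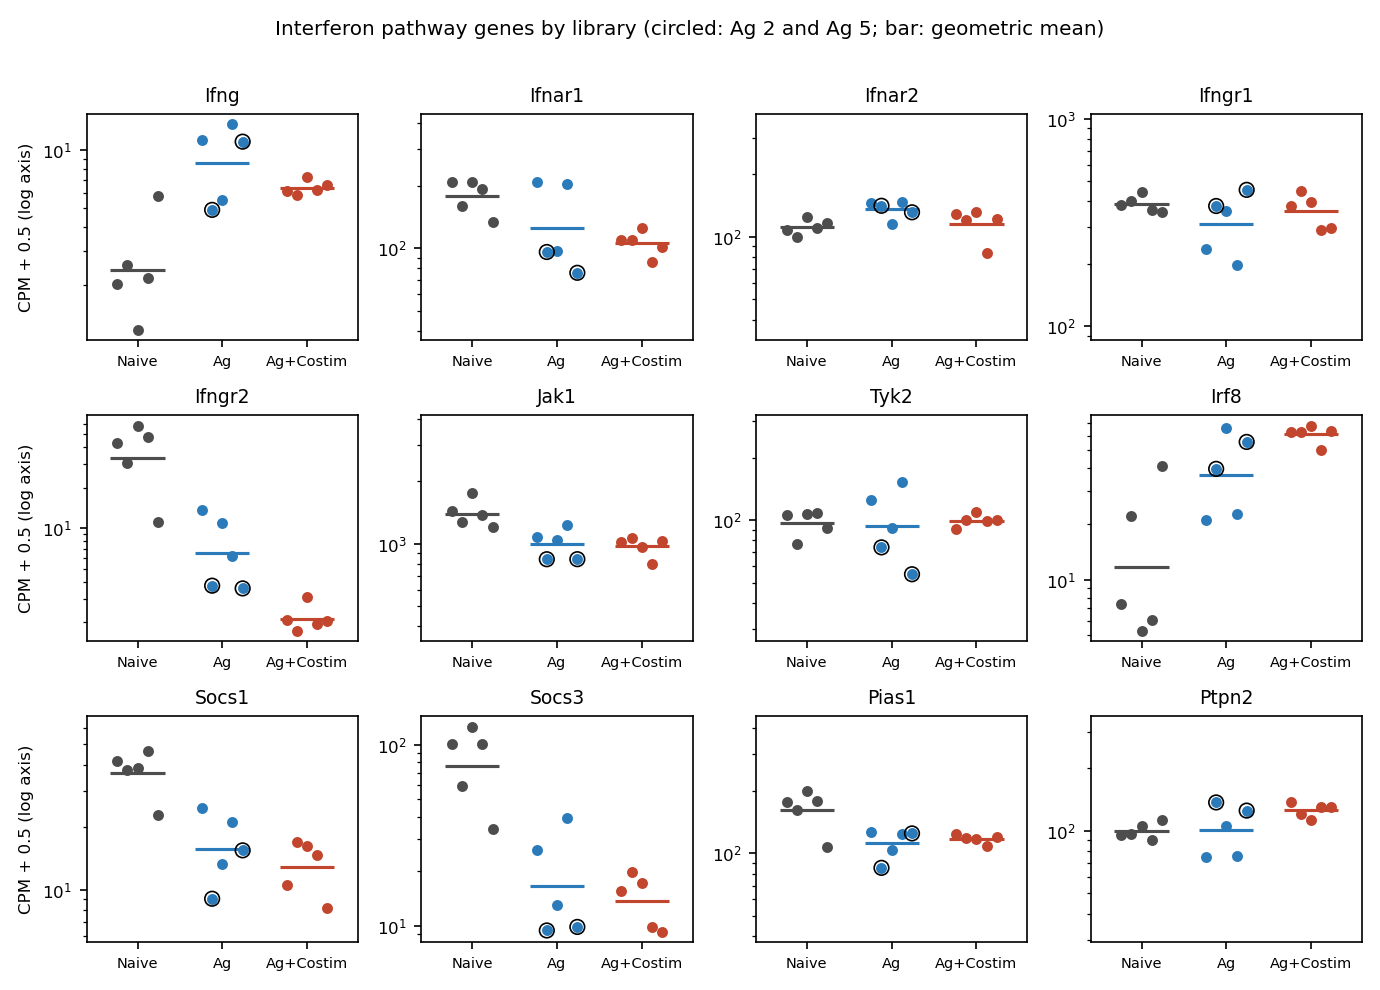
CPM + 0.5 on a log axis in each library for 12 genes of the interferon pathway, with the geometric mean of each group as a bar and Ag 2 and Ag 5 circled. Ifngr2 steps down from Naive to Ag to Ag+Costim and Socs1 and Socs3 are lower in both treated groups, while the 3 groups of Ifnar2 and of Ifngr1 overlap.

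A wider list of 66 interferon-inducible genes outside the 47, of which 63 were tested, gave 5 genes higher and 2 lower in Ag against Naive, where 3.05% and 3.66% of all genes were, none in Ag+Costim against Ag and 9 higher and 23 lower in Ag+Costim against Naive, where 21% and 23.6% of all genes were. At an unadjusted p under 0.05, 6 of the 63 were higher and 14 lower in Ag+Costim against Ag, where 7.28% and 19.5% of all genes were. Its median log2 differences were -0.12, -0.24 and -0.25. The largest falls in Ag+Costim against Naive were those of the helicase Ddx60 (-2.74 ± 0.65 on the log2 scale, edgeR FDR 0.00847), Ifit1bl1 (-2.57 ± 0.51 on the log2 scale, edgeR FDR 0.00434) and Ifit1bl2 (-2.10 ± 0.51 on the log2 scale, edgeR FDR 0.00938), and Ifit1 shares 7.06% of its 50-base stretches with the last of these. The largest rises were those of Cxcl10, a chemokine that recruits activated T cells (1.40 ± 0.44 on the log2 scale, edgeR FDR 0.0236), Phf11b (1.10 ± 0.23 on the log2 scale, edgeR FDR 0.00501) and Ifi211 (0.92 ± 0.20 on the log2 scale, edgeR FDR 0.00583). In Ag against Naive the T cell GTPase genes Tgtp1 and Tgtp2 fell by 1.43 on the log2 scale (SE 0.34, edgeR FDR 0.0261) and 1.35 on the log2 scale (SE 0.33, edgeR FDR 0.0304), and Phf11b, Ms4a4c and Phf11d rose by 1.08 ± 0.23 (log2, SE, edgeR FDR 0.0167), 0.79 ± 0.17 (log2, SE, edgeR FDR 0.0174) and 0.72 ± 0.17 (log2, SE, edgeR FDR 0.023). Tgtp1 and Tgtp2 both lie on chromosome 11, and their values ran in parallel. In Naive 1 to 5 they were 252, 231, 383, 346 and 116 CPM for Tgtp1 and 270, 251, 409, 365 and 126 CPM for Tgtp2. Sequence shared by these 2 genes was not measured, so their 2 calls are not read as separate results.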

How the data were processed

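Libraries were made with the SMART-Seq v4 low-input kit and Nextera XT, per the study's methods. The authors aligned reads to mm10 with HISAT2 2.1.0, sorted them with SAMtools 1.9 and deposited estimated counts per gene and transcript from StringTie 2.1.0, versions as in the submitters' processing notes, and replicates were not pooled. The deposited counts are derived from coverage and came as whole numbers. Total read counts, the percent of reads in the core's RiP column (not spelled out there) and lanes were taken from the sequencing core's deposited table. Genes were matched by identifier to GENCODE M21 (GRCm38), which held 55536 of 81881 entries. Another 26248 entries with numeric names held 0.0818% of counts and were left out, as were 97 spike-in entries with 0 counts.

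From there, edgeR 4.0.16 (R 4.3.3) was run on all 15 libraries together with the default filter on low counts, TMM scaling, a robust quasi-likelihood fit with 1 coefficient per group and Benjamini-Hochberg adjustment over 17366 genes. The common biological coefficient of variation was 0.431. No pair of libraries agreed within sampling noise (lowest chi-square per degree of freedom 5.62). TPM was computed from the transcript counts and annotated lengths. SE is the log2 fold change divided by the root of the F statistic. The procedure was tested on simulated counts. Alternatives were DESeq2 1.42.0, limma 3.58.1 voom with quality weights, totals without TMM, no filter, the 10 libraries compared, lane as a term, the replicate number as a block, the shared lane alone and leaving out each library. Leaving out Ag 2 with Ag 5, and Ag 3 with Naive 5, was added after seeing the data. Intervals from counting were not used, and depth limits genes of few counts such as Oas2 and Ifi44.

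The 47 members and the other gene lists were chosen with earlier results of these data known, and 1 pathway gene is not reported here. By rule, all 47 are named, and values in every library were given for up to 5 called members with the largest change in each direction of each comparison and for 20 members of known role whatever their values. Pathway genes were named by role, and of the wider list the 3 called genes with the largest change in each direction.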

Additional observations from a re-analysis of the deposited data

Results flagged for a closer look

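Each member given by library, and the class levels, were screened for 1 library far from the other 4 of its group. This marked 3 of 87 groups of values, where chance marks about 1 in 20 and thus 4.35 were expected. Oasl2 stood at 7.73 CPM in Ag+Costim 3, against 2.15 to 3.17 CPM in the other Ag+Costim libraries. Slfn5 stood at 8.57 CPM in the same library, against 1.52 to 3.01 CPM in the others. Ag+Costim 3 also had the highest mean level of the type I class in its group, 5.23 log2 CPM. Igtp stood at 95.2 CPM in Ag 3, the library with the lowest share of reads counted, against 122 to 130 CPM in the other Ag libraries.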

How the results depend on the processing

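The number of members called in Ag against Naive was 2, and became 6 with DESeq2 (which called 18.6% of all genes), 5 with voom (20.03%), 1 without TMM, 0 without the filter on low counts, 0 in the 10 libraries alone, 0 with lane as a term (13, 7 and 9 at an unadjusted p under 0.05 in these 3 edgeR fits), 1 without Ag 2 and Ag 5, 6 without Ag 3 and Naive 5 (22.9%), and 0 to 8 without any 1 library. In Ag+Costim against Ag it was 0 (5 at an unadjusted p under 0.05), and became 2 with DESeq2 (14.6% of all genes), 20 with voom (57.5%), 13 without Ag 2 and Ag 5 (50.5%), and 0 to 4 without any 1 library, the 4 without Ag 5. In Ag+Costim against Naive it was 19, and became 32 with voom (78.6% of all genes), 7 without the filter (8.49%), 5 with lane as a term (5.43%), and 6 to 20 without any 1 library. DESeq2 called the same 19. Totals without TMM moved the median log2 difference of all genes in Ag+Costim against Naive from -0.08 to -0.23, and 19 members were called there too, 2 higher and 17 lower. The called members kept their direction under all alternatives run, whereas 18, 16 and 13 members in the 3 comparisons, none of them called, changed sign under at least 1. The cause of the other changes was not tested. In Ag against Naive, the fit without Ag 2 and Ag 5 called 2.52% of all genes higher and 2.09% lower. Counts of members printed here without a share of all genes are not read as particular to the members.

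Replicate numbers are shared between groups, but no label says that a number marks a shared animal or day. Libraries with the same number correlated at -0.32 to 0.47 in their deviations from the group means, and 9 of 30 library and group pairs correlated best with their own number. With the replicate number as a block, 4, 0 and 19 members were called in the 3 comparisons. The shares of all genes called in this fit are not given here, so these counts are not read as particular to the members.

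Genes with few counts, such as Oas2, Mx2 and Ifi44, are known least precisely.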
